A study of Mus musculus with 16 samples.

Results

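On 132 of the 25697 probes of the array, the lowest value over the 8 LA arrays lay above the highest value over the 8 HA arrays, and the LA mean exceeded the HA mean by more than 0.4 on the log2 scale. These probes were taken from the authors' normalized log2 values by those 2 limits. They name 113 genes, and 9 of the probes have no gene in the array's annotation. The probes of Cops8 and Enpp5, which also met both limits, were left out, as were MHC class I genes, of which 0 probes were named among those that met them. The share of all probes that met both limits before this was 0.521%, and the mirrored limits, with every HA array above every LA array, were met by 101 probes (0.393%). Both limits use the difference between the lines, so the LA minus HA values of these probes are given as a description, with no test.

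RNA of the hippocampus of male Swiss-Webster mice, aged 15 weeks in the labels, was measured on MouseRef-8 BeadChips. Each of 4 groups had 4 arrays: LA mice given desipramine (DMI), LA mice given saline, HA mice given DMI and HA mice given saline. The LA and HA lines were bred for low and for high analgesia after a swim stress. DMI, a tricyclic that blocks the reuptake of noradrenaline, was given by intraperitoneal injection (7.5 mg/kg/day) over 21 days, and the hippocampi were dissected 2 days after that. According to the methods, RNA of 3 mice was pooled for an array, so p-values measure the spread between the 4 pools of a group.

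A value is the signal of a probe on the log2 scale after quantile normalization, which gives every array the same distribution, with a median of 6.70. A difference of 1 on this scale is a doubling of the signal, and no background was subtracted, so folds of dim probes are understated. Detection on an array means a signal above the negative controls of that array, with a detection p under 0.05. A bead probe binds a short stretch of a transcript, so a gene with several probes is read at several places of its RNA. Before normalization the median log2 signal ran from 6.52 to 6.93 over the 16 arrays. The mean signal was 247 to 369 in LA DMI, 249 to 300 in LA saline, 240 to 421 in HA DMI and 269 to 380 in HA saline arrays, and 12900 to 13886 probes were detected on each. Of 12 measured marker genes of hippocampal principal cells, 10 were detected on all 16 arrays, while Calb1 and Neurod6 were detected on 0. Markers of the choroid plexus, the epithelium of the ventricles, were lower in LA, with 10 of 12 called lower and a median log2 difference of -0.72 (summed signal 7319 to 34040 on LA arrays and 28702 to 35064 on HA arrays), and their part in the results was not tested. The tissue is a mixture of cell types, and more cells of a type cannot be told apart from more RNA per cell.

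Several of the genes belong to well-known cell functions. Neurexins sit on the sending side of synapses and bind partners across the cleft, among them secreted proteins of the C1q-like family. Mff is the receptor on the outer mitochondrial membrane that draws in the fission machinery, and caspase-9 is the protease that starts the mitochondrial route of cell death. Core histones of the H2A and H2B types are made in bulk when DNA is copied, from gene clusters in which the copies are nearly identical, and their genes are read by factors that bind an octamer motif and CCAAT boxes.

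LA minus HA ran from 0.40 to 2.01 over the 132 probes, with a median of 0.55, which corresponds to folds of 1.32 to 4.01 with a median of 1.46. The difference was over 1 on 10 probes, between 0.8 and 1 on 15, between 0.6 and 0.8 on 26, between 0.5 and 0.6 on 30 and between 0.4 and 0.5 on 47, and 4 came to just under 0.4 on the signals normalized for this report. On these signals all 132 still had no overlap between the lines. The gap between the lowest LA and the highest HA array had a median of 0.17 and reached 1.83. The probes were brighter than most, with a median log2 level of 8.09, against 7.43 over the 14583 probes detected on at least 4 arrays. The SD within a line had a median of 0.15 over LA arrays and 0.12 over HA arrays.

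Close to the limits the choice turns on small differences. Just inside the limit on size stood a second probe of Tctn3 at 0.400017, Fbxo2 at 0.401 and a probe without a gene at 0.402, and just outside stood Zdhhc21 at 0.399847, Rbfa at 0.394 and Gapvd1 at 0.393, in the authors' values. On separation, Amn was inside with a gap of 0.0032, Rangrf with 0.0036 and a probe of Lman2l with 0.0045. Copg1 was outside with the lines overlapping by 0.0059, although its LA minus HA of 0.68 was larger than that of most probes inside.

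The largest difference was that of Casp9, the initiator caspase, with log2 values of 8.57, 8.65 and 8.80 (lowest, median and highest) on LA arrays and 6.60, 6.69 and 6.74 on HA arrays. Its LA minus HA was 2.01, a fold of 4.01, and the probe was detected on all LA arrays and on 5 of the 8 HA arrays. The gap between the lowest LA and the highest HA array was 1.83, the widest of all 132 probes, against an SD of 0.083 over LA arrays and 0.063 over HA arrays. Further probes of Casp9 ran the other way, at -0.26 (detected on 12 arrays) and -0.11 (detected on 3). Rusc2, a protein of vesicle traffic, was chosen at 2 probes, at 1.69 and 1.55. Its first probe read 9.65, 9.49, 9.31 and 9.54 on LA DMI arrays, 9.44, 9.92, 9.61 and 9.85 on LA saline arrays, 7.75, 8.61, 8.65 and 7.50 on HA DMI arrays and 7.58, 7.67, 7.69 and 7.85 on HA saline arrays. HA DMI replicates 2 and 3 stood apart from the other 6 HA arrays at both probes, with 8.52 and 8.55 at the second, where the other HA arrays lay between 7.46 and 7.80.

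Riok1, a kinase of small ribosomal subunit assembly, read 7.79, 8.09 and 8.22 on LA arrays and 6.41, 6.49 and 6.66 on HA arrays, where it was detected on 1 of 8 (LA minus HA 1.55). Mff read 8.25, 8.49 and 8.95 on LA arrays and 6.51, 7.02 and 7.81 on HA arrays (1.41). Its HA values fell into 2 sets by treatment, which are described with the DMI comparisons. D11Wsu47e read 7.96, 8.11 and 8.37 on LA arrays and 6.81, 6.85 and 7.14 on HA arrays (1.22), and Hmgxb3, an HMG-box protein, read 8.50, 8.89 and 9.43 on LA arrays and 7.62, 7.75 and 7.84 on HA arrays (1.22). Rmdn3, a tether between mitochondria and the endoplasmic reticulum, had LA values of 7.45, 8.20 and 8.56 and HA values of 6.86, 6.97 and 7.14 (1.17), with LA saline replicate 2 the lowest LA array and the next at 8.05. In these 5 genes the lowest LA array stood at least 0.30 above the highest HA array.

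Psmc3ip, which takes part in meiotic recombination, read 7.92, 8.18 and 8.51 on LA arrays and 6.81, 7.14 and 7.21 on HA arrays (1.12). Tctn3, of the ciliary transition zone, read 8.19, 8.34 and 8.42 on LA arrays and 6.95, 7.16 and 7.80 on HA arrays (1.08). As at Rusc2, the highest HA arrays of Tctn3 were DMI replicates 2 and 3, at 7.70 and 7.80, while the other 6 lay between 6.95 and 7.27. Adat2, the catalytic subunit of a tRNA deaminase, read 8.13, 8.41 and 8.68 on LA arrays and 7.14, 7.45 and 7.78 on HA arrays (0.99). Slco1c1, a thyroid hormone transporter of brain capillaries and choroid plexus, read 8.27, 8.69 and 8.94 on LA arrays and 7.30, 7.72 and 7.89 on HA arrays (0.99). Endothelial and mural markers, a list that holds Slco1c1 and the member Flt1, had a summed signal of 2833 to 4276 on LA arrays. On HA arrays it was 2386 to 3163. The 9 other genes of the list had a median LA minus HA of 0.07, with 1 called lower in LA and 0 higher. Leaving out the members lowers the number called higher.

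All 132 probes were detected on all 8 LA arrays, and 115 were detected on all 16 arrays. A set of 4 probes was detected on no HA array, and their difference is a lower bound. H2aj, an H2A variant, was at least 1.49-fold higher in LA, with 7.06 to 7.36 on LA arrays and 6.41 to 6.53 on HA arrays. Trmt10c, a subunit of mitochondrial RNase P, was at least 1.53-fold higher (7.06 to 7.53 on LA arrays and 6.48 to 6.64 on HA arrays). Cxadr, a junction protein that serves as a virus receptor, was at least 1.38-fold higher (6.76 to 7.34 and 6.44 to 6.61), and Trim9, a neuronal ubiquitin ligase, at least 1.34-fold higher (6.94 to 7.35 and 6.37 to 6.64). Each bound holds for the probe alone. Unchosen probes of Trim9, detected on 16 and 15 arrays, differed by 0.13 and -0.02. One of Cxadr, detected on all 16, differed by -0.01. The bound sets the LA mean against the higher of the HA signal and the lowest signal of a detected probe, array by array. Another 13 probes were detected on 1 to 7 HA arrays.

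Arranged by what their proteins do, the genes spread over many functions, and medians of LA minus HA by role ran from 0.48 for mitochondria and metabolism to 0.68 for RNA and ribosome processing. The synapse and neuronal surface held 14 genes on 15 probes, with LA minus HA from 0.43 to 0.92. C1ql2, a secreted C1q-like protein of dentate granule cell synapses, was the brightest of the large differences, at 10.94, 11.06 and 11.30 on LA arrays and 9.84, 10.18 and 10.35 on HA arrays (0.92). Nrxn3, a neurexin, read 7.49, 8.15 and 8.52 on LA arrays and 6.98, 7.21 and 7.41 on HA arrays (0.87). Igsf11, an adhesion protein of excitatory synapses, was chosen at probes with 0.80 and 0.58, and Cd200, a surface signal from neurons to microglia, at 0.79. The rest were Ntn5 and Sipa1l1 (0.67 each), the cadherin Celsr3 (0.66), Cxadr (0.61), the scaffold Caskin1 (0.53), Lzts3 (0.52), Vldlr (0.48) with its ligand Reln (0.47), the semaphorin receptor Plxna2 (0.44) and Tspoap1 (0.43).

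Ion channels, pumps, transporters and calcium-dependent enzymes held 10 genes on 12 probes, from 0.42 to 0.99. Pde1a, a phosphodiesterase switched on by calmodulin, was the only gene chosen at 3 probes, at 0.72, 0.66 and 0.50. Its first probe read 9.06 to 9.42 on LA arrays and 8.17 to 8.79 on HA arrays. Slc8a2, a sodium-calcium exchanger, read 7.59 to 8.10 on LA arrays and 7.05 to 7.39 on HA arrays (0.65), and Cacna2d1, an auxiliary subunit of calcium channels, 9.74 to 9.99 and 8.76 to 9.57 (0.57). The other channels and carriers were Cnnm1 (0.76), Slco1a4 (0.61), the potassium channel subunit Kcnf1 (0.58), the sodium channel Scn1a (0.56), the lipid flippase Atp8a1 (0.52) and the proton pump subunit Atp6v0a2 (0.42).

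A list of 77 calcium signalling genes, of which 68 were measured, held 3 of the member genes: Pde1a, Slc8a2 and Cacna2d1. Among its 65 other genes, limma called 1 higher and 2 lower in LA (adjusted p under 0.05 and a log2 difference beyond 0.5). Of all probes, 0.459% were called higher and 0.405% lower. Those shares count the members, while the 65 leave out the 3 chosen for being higher in LA. The counts of higher genes among the 65 are therefore lowered by the choice, through Pde1a and Cacna2d1, whose list probes were chosen (0.66 and 0.57). Slc8a2 enters the list at a brighter probe that was not chosen, with a difference of -0.03. Pde1b, the second calmodulin-dependent phosphodiesterase, was the one called higher, with 11.15 ± 0.42 in LA and 10.65 ± 0.14 in HA (SD, n = 8; difference 0.51, SE 0.10, limma adjusted p = 0.0025). Calm2, a calmodulin, was called lower at 11.46 ± 0.081 in LA and 11.98 ± 0.25 in HA (-0.51, SE 0.083, limma adjusted p = 4.3e-04), and so was Calb2, calretinin, at 9.50 ± 0.51 in LA and 10.39 ± 0.58 in HA (-0.89, SE 0.19, limma adjusted p = 0.0034). These 3 were named because they make up the count. Of the 68 measured genes, 55 were detected on all arrays. The shares over all probes include undetected ones, and a share matched for detection was not computed. On adjusted p alone 10 of the 65 were higher and 5 lower in LA, where 5.92% of all probes were higher and 5.87% lower. Among the higher ones were the channel subunits Cacnb4 (0.35, limma adjusted p = 6.1e-05) and Cacna1h (0.44, limma adjusted p = 6.6e-04) and the release channel Itpr2 (0.29, limma adjusted p = 2.8e-04). The median difference of the 65 was 0.03, against 0.00066 over all probes. Markers of neighbouring regions moved with 2 of these calls, and their part was not tested: thalamic and habenular markers, which include Calb2, had a median of -0.41, and striatal markers had a summed signal of 1474 to 5898 on LA arrays and 1405 to 2308 on HA arrays. The call of Pde1b was lost without HA DMI replicate 2 (0.47), HA saline replicate 1 or 2 (0.50 each), LA DMI replicate 2 (0.49), LA saline replicate 2 (0.42) or LA saline replicate 4 (0.50), and that of Calm2 without HA DMI replicate 3 (-0.45), HA saline replicate 1 (-0.49), HA saline replicate 2 (-0.48) or LA DMI replicate 4 (-0.49), in each case because the difference came to less than 0.5 in size. With the medians of the arrays set equal in place of quantile normalization, Pde1b also lost its call (0.27, limma adjusted p = 0.299), and Cacnb4 (0.11, limma adjusted p = 0.52), Cacna1h (0.19, limma adjusted p = 0.28) and Itpr2 (0.10, limma adjusted p = 0.49) no longer passed on adjusted p, while Calm2 and Calb2 kept their calls (-0.76 and -1.13).

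Chromatin, transcription and DNA maintenance was represented by 21 genes on 23 probes, from 0.40 to 1.22. Mef2c, an activity-regulated transcription factor of neurons, was chosen at 2 probes, at 0.73 (8.53 ± 0.24 in LA and 7.81 ± 0.21 in HA, SD, n = 8) and 0.69 (10.05 ± 0.32 and 9.36 ± 0.16). Ctc1, of a complex that protects telomeres, was chosen at 0.81 and 0.51. Behind Hmgxb3 and Psmc3ip came the histone genes H2bc14 (0.91), H2aj (0.75) and H2bc6 (0.56), then Atf7ip (0.66), Med18 (0.59), Ccndbp1 (0.58), the genome organizer Satb1 (0.57), Gtf2ird2 (0.53), the retinoblastoma gene Rb1 (0.50), Nfkbiz (0.48), the centromere chaperone Hjurp (0.47), Zfp869 (0.46), Rpain and the remodeller Chd5 (0.44 each), Csrnp3 (0.43), Atmin (0.40) and the clock gene Per2 (0.40).

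The histone genes are shown with the 250 bases before their starts because H2bc14 and H2bc6, both on chromosome 13, were higher together. In these letters, from RefSeq and read 5′ to 3′ along the gene, capitals mark the octamer ATTTGCAT and the CCAAT box CCAAT, searched on both strands; the motifs do not overlap. H2bc6 has a further start, whose window holds 3 CCAAT boxes and 0 octamers.
H2bc14 (GRCm38.p6, chr13:21721794-21722043, plus strand): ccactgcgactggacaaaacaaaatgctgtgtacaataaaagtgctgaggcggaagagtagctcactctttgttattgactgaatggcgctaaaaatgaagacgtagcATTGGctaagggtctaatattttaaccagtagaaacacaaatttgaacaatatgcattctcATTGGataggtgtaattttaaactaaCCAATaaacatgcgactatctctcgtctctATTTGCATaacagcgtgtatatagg
H2bc6, second start (GRCm38.p6, chr13:23585971-23586220, minus strand): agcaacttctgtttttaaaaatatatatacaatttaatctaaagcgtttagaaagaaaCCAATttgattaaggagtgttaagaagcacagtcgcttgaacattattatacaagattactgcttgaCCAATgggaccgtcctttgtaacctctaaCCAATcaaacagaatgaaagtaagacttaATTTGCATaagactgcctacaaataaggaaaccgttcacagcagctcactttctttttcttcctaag
H2aj (GRCm38.p6, chr6:136807998-136808247, plus strand): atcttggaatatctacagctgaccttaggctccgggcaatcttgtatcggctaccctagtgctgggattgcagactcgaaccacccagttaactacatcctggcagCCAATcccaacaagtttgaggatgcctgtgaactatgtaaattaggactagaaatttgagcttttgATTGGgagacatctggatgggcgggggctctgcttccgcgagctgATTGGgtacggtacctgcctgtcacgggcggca

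H2bc14 and the second start of H2bc6 each hold 1 octamer and 3 CCAAT boxes, and H2aj holds 3 CCAAT boxes and 0 octamers. Over all 32851 promoter windows of the same length, 1.6% hold the octamer and 33.8% a CCAAT box. RefSeq windows were matched by gene ID for 86 of the 113 member genes, and of their 121 windows 6 held the octamer (4.96%), those of Atf7ip, Gcnt2, H2bc14, H2bc6, Mff and Nrxn3, and 50 a CCAAT box (41.3%). The motifs were searched because histone genes carry them, and the histone members H2bc14 and H2bc6 are among the 6. The octamer share of the members is therefore raised in part by the choice of motif. A match is a description of the letters, not a measured site.

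H2bc14 read 7.93, 8.05 and 8.24 on LA arrays and 6.96, 7.13 and 7.34 on HA arrays, and H2bc6 averaged 7.42 ± 0.053 on LA arrays and 6.86 ± 0.12 on HA arrays (SD, n = 8). The other H2A and H2B genes, looked up after these values were seen, did not move in 1 direction. Of the 18 probes of these H2A and H2B genes detected on at least 4 arrays, 0 separated the lines with LA above. Of all probes detected on at least 4 arrays 1.94% did, so 18 are too few to differ from that share. The histone members are also not among the 18. LA minus HA ran from -0.40 for H2bc15 to 0.54 for H2ac24, with a median of 0.17. Near-identical histone copies can share a probe's signal, so the assignment to 1 copy is uncertain. The same holds for Mfap1b, Psg23, Slco1a4 and Gtf2ird2, which belong to families of close copies.

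RNA and ribosome processing held 8 genes, from 0.45 to 1.55: Riok1, Adat2, the ribosome assembly factors Rrp12 (0.83) and Nvl (0.45), Trmt10c (0.74), Mfap1b (0.61), the splicing regulator Rbfox2 (0.47) and R3hdm1 (0.45). Rrp12 averaged 9.12 ± 0.097 on LA arrays and 8.29 ± 0.24 on HA arrays (SD, n = 8). Mitochondria and metabolism held 13 genes, from 0.42 to 1.41. Behind Mff and Rmdn3 came Hyi (0.67), Gcnt2 (0.54), Plpp7 (0.53), the fatty acid ligase Acsl6 (0.51), glutamine synthetase, Glul (0.48), Aldh18a1 (0.46), the phosphatidate phosphatase Lpin2 (0.45), Bpnt2 (0.44), and Sumf2, Neu2 and Acot13 (0.42 each). Glul, an astrocyte marker, was the member on a list of 11 astrocyte genes whose 10 others had a median of -0.05.

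Protein turnover, signalling, vesicle traffic and cell death was the largest group, with 24 genes on 28 probes from 0.40 to 2.01. Tsc2, the brake on the growth kinase mTOR, was chosen at 0.87 (10.66, 10.84 and 11.06 on LA arrays and 9.75, 10.03 and 10.13 on HA arrays) and 0.50. Map1lc3a, a coat protein of autophagosomes, stood at 0.86, with 7.65, 7.77 and 7.98 on LA arrays and 6.84, 6.92 and 7.06 on HA arrays. A brighter probe of Map1lc3a, detected on all 16 arrays and not chosen, had overlapping lines. It read 8.73 to 9.41 on LA arrays and 8.69 to 9.33 on HA arrays (0.11). Senp7, a SUMO protease, stood at 0.77 and Garnl3 at 0.73, followed by Reep3 (0.60), Trim9 (0.56 and 0.42), Cnih4 (0.55), the kinase Dclk3 (0.53), Tnfrsf25 and Dok3 (0.52 each), the receptor kinase Ltk (0.48) and the phosphatase Ppm1l (0.46). The remaining ones, Ube2o, Rala, Lman2l (2 probes), Vcp, Ppp1r13b, Inka2, Plcl2, Ubox5, Rangrf and Fbxo2, lay between 0.40 and 0.45.

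The cytoskeleton and cilia held 6 genes, from 0.40 to 1.08. Sptbn1, a spectrin of the membrane skeleton, read 8.04, 8.37 and 8.81 on LA arrays and 7.41, 7.48 and 7.61 on HA arrays (0.88), ahead of the tubulin ligase Ttl (0.65), the ciliary gene Evc2 (0.60), Anks6 (0.42) and the neuronal kinesin Kif5a (0.40). Secreted, vascular and immune proteins held 9 genes, from 0.41 to 0.90. Prf1, perforin, read 9.26, 9.89 and 10.14 on LA arrays and 8.69, 8.96 and 9.22 on HA arrays (0.90). The further probe of Prf1 was detected on 0 arrays (0.03), so the difference rests on 1 probe. Behind Prf1 came Fcer1g, the signalling chain of Fc receptors (0.82), the matrix protein Ccn2 (0.80), the protease Bmp1 (0.58), Psg23 (0.53), Anxa3 and the growth factor receptor Flt1 (0.47 each), Amn (0.46) and Fgfbp3 (0.41). Markers of microglia, which express Fcer1g, had a summed signal of 2194 to 2558 on LA arrays and 2135 to 2486 on HA arrays, and a median LA minus HA of -0.18 over 10 genes, of which 1 was called higher in LA and, on adjusted p alone, 5 were lower. Genes given no role here were D11Wsu47e, Dbpht2 (0.89), D130043K22Rik (0.61), Dmwd (0.59), 6430548M08Rik (0.58), Pnma2 (0.56), AW549877 and Smim19 (0.41 each). The 9 probes without a gene ran from 0.40 to 0.80.

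Other probes of the same genes are those that did not meet both limits, since any that did would itself be a member. Their differences are therefore held down in part by the choice and are given as a description. Of the 113 genes, 9 were chosen at more than 1 probe, 52 had at least 1 further probe that was not chosen, and 57 had no other probe at all. The further probes numbered 80, and 58 of them, from 41 genes, were detected on at least 4 arrays. Of these 58, 2 separated the lines with LA above (3.45%). Over all probes detected on at least 4 arrays the share was 1.94%, which counts the members and so is not a like share. That 0 of the 58 met both limits follows from the choice. LA minus HA was above 0 on 41 and below 0 on 17, with a median of 0.07, against -0.0037 over all detected probes. It was over 0.2 on 14 and within 0.1 of 0 on 26.

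The probes that separated the lines were those of Bmp1 and Atmin. A second probe of Bmp1 had 7.86 to 8.13 on LA arrays and 7.49 to 7.79 on HA arrays (0.33), and one of Atmin had 9.34 to 9.62 on LA arrays and 8.94 to 9.33 on HA arrays (0.35). Vldlr had 4 further detected probes, at 0.43, 0.35, 0.15 and 0.02, and the bright ones were the first 2. Anxa3 had another at 0.42, Rb1 at 0.31 and Mef2c at 0.30, each with overlapping lines. Dmwd had 2 further detected probes, at 0.38 and -0.14.

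Of the genes with the largest differences, Casp9, Riok1, Mff, D11Wsu47e and Rmdn3 had a further detected probe, and it differed less between the lines. Rusc2 and Tctn3 had a further probe detected on 0 and on 3 arrays, and Hmgxb3, Psmc3ip, Adat2 and Slco1c1 had none. For Casp9 the other detected probe, above background on 12 arrays, read 6.45 to 6.89 on LA arrays and 6.70 to 7.09 on HA arrays, and LA minus HA was -0.26. For Riok1 it read 7.01 to 7.26 on LA arrays and 7.02 to 7.27 on HA arrays (0.05). For Mff the other probe was brighter than the chosen one, with 9.35 to 9.65 on LA arrays and 9.32 to 9.73 on HA arrays (-0.06). For D11Wsu47e it read 6.70 to 6.97 on LA arrays and 6.57 to 6.82 on HA arrays (0.18), detected on 10 arrays. For Rmdn3 it read 8.19 to 8.60 on LA arrays and 8.21 to 8.58 on HA arrays (-0.06). Sptbn1 had 3 others at -0.09, 0.06 and 0.12, Nrxn3 1 at 0.06 and Slc8a2 1 at -0.03. Cxadr, whose chosen probe was detected on no HA array, had another detected on all 16 arrays, at 7.52 to 7.90 on LA arrays and 7.59 to 7.93 on HA arrays (-0.01). The probes below -0.2 were those of Casp9, Igsf11 (-0.21) and Anks6 (-0.29). In 18 of the 58 the further probe was brighter than the chosen one. Which stretch or variant of a transcript each probe reads was not examined here.

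Member genes lay on all 19 autosomes, and 0 of the 609 measured genes of the X chromosome were among them. As a share of the measured genes they ranged from 0.21% on chromosome 9 (2 of 970) and 0.25% on chromosomes 3 and 18 to 1.33% on chromosome 1 (12 of 901), 1.41% on chromosome 13 (9 of 640) and 1.44% on chromosome 12 (7 of 486). Chromosome 2 held the most, 13 of 1471, and chromosome 7 held 4 of 1497.

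Another member gene lay within 1 Mb of 37 of the 113 genes (32.7%), whereas 13.5% of all 16582 measured genes had a member gene that near. Neighbours are from the GRCm38.p6 annotation, and the shares are not adjusted for gene density. The neighbouring members formed 18 groups, of which the largest held 3 genes, Nfkbiz, Trmt10c and Senp7 on chromosome 16. No other measured gene lay between Nvl and Cnih4, Rangrf and Ctc1, Trmt10c and Senp7, Caskin1 and Tsc2, Aldh18a1 and Tctn3, or Ubox5 and Lzts3. Slco1c1 and Slco1a4, transporters of the same family, lay near each other on chromosome 6, and Vcp and Rusc2 on chromosome 4.

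Within 1 Mb of a member gene lay 2201 measured genes that were not members. Of these, 18 (0.818%) had a probe that met the mirrored limits, with every HA array above every LA array, against 0.546% of all 16469 other genes, and they lay near 19 of the member genes. The number that met the limits in the same direction is fixed by the choice, since any such gene would itself be a member, and was 1, Cops8 near Per2, one of the 2 such genes (0.0121%) that were left out of the choice. Tmem87a, near Ltk and Ccndbp1, had 7.33 in LA and 8.49 in HA (-1.16). Ndufb10, a subunit of respiratory complex I near Tsc2 and Caskin1, had 8.07 in LA and 9.06 in HA (-0.99). Kif3a, a ciliary kinesin near Acsl6, had 7.68 and 8.53 (-0.85), and Sdhc, a subunit of succinate dehydrogenase near Fcer1g, had 10.13 and 10.92 (-0.79). By name, the members belong to 82 families with 1263 other measured genes, and of these 4 met the mirrored limits (0.317%): Acot7, Kif3a, Trim2 and Trim3.

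On DMI-labelled arrays LA minus HA had a median of 0.54 and ran from 0.25 to 2.01, and on saline-labelled arrays it had a median of 0.55 and ran from 0.22 to 2.01. It was larger on the DMI-labelled arrays for 62 of the 132 probes, and it was over 0.4 for 111 on DMI-labelled and 115 on saline-labelled arrays. The difference of these differences was tested with limma over all probes. It is another contrast than that of the choice, but not independent of it, because the limit on separation holds over all arrays of a line and so bounds how far DMI and saline arrays can lie apart at a given gap. Counts over the 132 probes are therefore a description. At an adjusted p under 0.05, 0 of the 132 probes differed, against 0.00389% of all probes, while 34 (25.8%) had an unadjusted p under 0.05, against 6.99% of all probes and 11.6% of the 10707 probes detected on all 16 arrays. The smallest adjusted p were those of Anxa3 (0.40, SE 0.083, limma adjusted p = 0.14) and Mff (0.78, SE 0.16, limma adjusted p = 0.14).

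The effect of DMI within a line is bounded by the choice in the same way, and was tested with limma over all 25697 probes, with a call at an adjusted p under 0.05 and a log2 difference beyond 0.5. Signs run as the arrays are labelled, DMI minus saline, and this direction opposes the one the study gives for the same data. Only the labelled groups are therefore compared. In HA mice 2 of the 132 probes passed (1.52%), against 0.113% of all probes. Shares of all probes that passed, here and in the DMI comparisons below, include undetected probes. Such shares matched for detection were not computed. Mff fell by 1.01 (SE 0.11, limma adjusted p = 9.6e-04), with 6.68, 6.65, 6.51 and 6.55 on HA DMI arrays and 7.81, 7.73, 7.52 and 7.36 on HA saline arrays. The 2 sets of HA arrays did not overlap, and all 8 lay below the lowest LA array, at 8.25. Fcer1g rose by 0.54 (SE 0.092, limma adjusted p = 0.018), with 7.60, 7.99, 7.62 and 7.78 on HA DMI arrays and 7.07, 7.32, 7.09 and 7.35 on HA saline arrays. Its HA DMI arrays were closer to the LA arrays, which read 8.13 to 8.50, than its HA saline arrays were.

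The call of Fcer1g was lost without HA DMI replicate 2 (0.46, limma adjusted p = 0.061), HA saline replicate 1 (0.49, limma adjusted p = 0.067) or HA saline replicate 3 (0.50, limma adjusted p = 0.072), and with median scaling (0.58, limma adjusted p = 0.38), while Mff kept its call without each array in turn. On adjusted p alone 7 of the 132 probes passed in HA, against 0.331% of all probes, among them Nvl (-0.49, limma adjusted p = 0.018), Anxa3 (-0.33, limma adjusted p = 0.023), 1 probe of Pde1a (0.41, limma adjusted p = 0.031) and both probes of Tctn3 (0.49 and 0.27, limma adjusted p = 0.035 and 0.039). Tctn3 and Cnnm1 (0.52, limma adjusted p = 0.084) varied among the HA DMI arrays, with an SD of 0.29 and 0.30. Unadjusted p was under 0.05 for 32 (24.2%), against 8.56% of all probes and 15.2% of those detected on all arrays. Microglial markers had a summed signal of 2227 to 2486 on HA DMI arrays and 2135 to 2447 on HA saline arrays, and a median effect of 0.05 over 10 genes, of which limma called 0. Markers of thalamus and habenula, a neighbouring region, were lower on HA DMI arrays (3795 to 5229) than on HA saline arrays (8057 to 8547), with 4 of 14 called, and their part in these results was not tested.

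In LA mice 0 of the 132 probes passed, against 0.0311% of all probes, and 29 had an unadjusted p under 0.05 from limma (22%, against 8.68% of all probes and 13.3% of those detected on all arrays). The smallest adjusted p were those of Kcnf1 (0.33, limma adjusted p = 0.14), Celsr3 (-0.33, limma adjusted p = 0.19) and Satb1 (0.36, limma adjusted p = 0.19). Mff in LA read 8.68, 8.40, 8.25 and 8.26 on DMI arrays and 8.95, 8.55, 8.43 and 8.58 on saline arrays, with the groups overlapping. For the effect common to both lines 1 probe passed, against 0.0506% of all probes: Mff (-0.62, SE 0.081, limma adjusted p = 0.0036). This call was lost with median scaling (-0.62, limma adjusted p = 0.12). An unadjusted p under 0.05 was found for 32 probes (24.2%) in this comparison, against 10.2% of all probes and 17.4% of those detected on all arrays. Over the 132 probes the median effect of DMI was -0.02 in LA and 0.0028 in HA, against 0.00053 and 0.0021 over all probes.

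The number of probes depends on how the arrays are scaled to each other. With the medians of the arrays set equal in place of quantile normalization, 42 probes met both limits, 41 of them among the 132, and the 12 probes with the largest differences were all among them. That scaling moved the median LA minus HA of the probes detected on all 16 arrays to -0.16, and the median of the 132 was then 0.37.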

How the data were processed

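RNA pools from the hippocampus were hybridized to 16 one-colour arrays, 4 in each of 4 groups, and groups were taken from the sample labels. The intensity values were deposited by the authors as 1 linear signal per probe and array, without background subtraction or normalization. The p-value columns are, per the file headers, detection p-values against each array's negative controls. The log2 values, made by the authors by log2 transformation and quantile normalization (median 6.69 on each array), chose the 132 probes. All other values and tests used log2 signals quantile normalized in R 4.3.3 with limma 3.58.1 (largest difference from the authors' values 0.046). Tables were made in Python 3.11.15 with pandas 2.3.3 and NumPy 2.4.6.

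A linear model with a mean for each group was fitted to all 25697 probes (lmFit, then eBayes), and p-values were adjusted by Benjamini-Hochberg over all probes. Calls needed an adjusted p under 0.05 and a log2 difference beyond 0.5, except for the difference between lines in the DMI effect, where size was not used. Fits were tested on simulated data. Gene names came from the array's annotation, updated by gene ID: 23978 probes had 1 symbol, 0 several and 1719 none, and 23962 gene IDs were found in GRCm38.p6. For gene lists each gene was taken at its brightest probe.

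The members and lists were chosen with earlier results of these data known. Values by array were given for the 12 largest differences, members not detected in HA and members called for DMI, and by line for further members picked after their values were seen. The rule also named members with another detected probe; these were too many and are given by their differences. In the calcium list up to 4 genes with the smallest p were named. Roles were assigned from general knowledge after the members were known. Alternatives were other normalizations, limits and filters, a replicate block and each array left out. Replicate numbers did not pair arrays between groups (24 same-number correlations from -0.331 to 0.19, 4 of them over 0.1). Which arrays shared a BeadChip is not given in the sources used here, so no chip term was fitted. The number of arrays limits the precision.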

Additional observations from a re-analysis of the deposited data

Results flagged for a closer look

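In 3 of the 96 groups of 4 arrays of the 24 probes examined array by array, 1 array stood apart from its group by more than Dixon's limit allows, where chance gives about 1 in 20. Over all 132 probes this held for 21 of 528 groups (3.98%). Cxadr was lowest on LA DMI replicate 2, at 6.76, where the other 3 arrays of the group lay at 7.20. Adat2 was highest on HA DMI replicate 4, at 7.40, where the others lay between 7.14 and 7.17. H2bc6 was lowest on LA saline replicate 4, at 7.32, where the others lay between 7.45 and 7.47. The lines remained separated at each of these probes.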

How the results depend on the processing

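The number of probes that met both limits, 132 in the authors' values, was 42 with median scaling, of which 41 were among the 132. It was 203 with a limit of 0.3, 81 with a limit of 0.5, 219 on the DMI arrays alone and 279 on the saline arrays alone. It was 128 on the signals normalized for this report and 171 after normexp background correction, and 127 to 152 with each array left out in turn. The 2 calls for DMI in HA became 4 in the authors' values and 1 to 4 with each array left out, with 4 without HA DMI replicate 4 and 1 without HA saline replicate 1 or 3. Calls for DMI in LA stayed at 0 under every alternative. The 1 call for the common effect became 0 with median scaling (Mff, -0.62, limma adjusted p = 0.12) and was 1 with each array left out. The 0 calls for the line by DMI difference became 1 with the replicate number as a block and 0 to 1 with each array left out, with 1 without LA saline replicate 2. The block left all other counts within 1.5 times their values. The 3 calcium genes called between the lines became 1 to 3 with each array left out, with 1 without HA saline replicate 1 or 2, and 2 with median scaling, where Pde1b was not called. The 2 other probes that separated the lines became 0 with median scaling and 2 to 5 with each array left out. Of genes within 1 Mb, 1 met the limits with LA above, against 2 with median scaling, 13 with normexp and 1 to 5 with each array left out, and 18 met them with HA above, against 16 to 22. Of other genes with the symbol stem of a member, 0 met the limits with LA above. The choice fixes this count, since such a gene would itself be a member. That count was 0 to 2 with each array left out. With HA above, 4 met them, against 7 with median scaling, 9 with normexp and 4 to 6 with each array left out. The cause of these changes was not tested. No difference changed sign under any alternative for the genes named with their own alternatives, and 30 of their differences moved by more than the spread between arrays, all under median scaling or normexp. Dim probes limit the size of a difference, since 17 of the 132 were not detected on every HA array. No chip term was run.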
